A study of Mus musculus with 7 samples.

Results

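The let-7 family is represented here by its 5p arms let-7a, b, c, d, e, f, g and i together with miR-98-5p, 9 rows of the 1914 mature mouse miRNA rows in the counts. The 9 rows were picked by name, and the restriction to 5p arms and the interest in this family came after their higher level in KO than in WT libraries was known. That difference is therefore described below with its error, and the counts of members called by each tool are given without reading anything from them. The tissue was lateral ventricle with choroid plexus, taken from adult mice of strain C57BL/6J, and small RNA was sequenced in 4 libraries labelled TAp73 Knock-out (KO) and 3 labelled Wild-type (WT). TAp73, a product of Trp73, is the p73 isoform with a transactivation domain, and by its title the study concerns how multiciliated cells of the brain form. The labels do not say which exons the KO allele lacks, and they do not tie libraries to single animals, so errors measure the spread between these libraries, which may be technical. Trp73 itself is not measured by small RNA, so the genotype labels were not checked against it.

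miRNAs are cut from hairpin precursors, and usually 1 of the 2 arms of the hairpin is loaded into an Argonaute protein, where bases 2 to 8 (the seed) pair with target messenger RNAs and lower their output. let-7 was found in Caenorhabditis elegans as a regulator of developmental timing. In mammals its mature forms accumulate as cells leave the progenitor state, and the RNA-binding protein LIN28 holds them back in embryonic cells by binding let-7 precursors. Known targets in mammals include Lin28a, Hmga2 and Ras and Myc family genes, and in the brain the family is abundant in differentiated neurons and glia.

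The mature sequences of the 9 members show what they share and where they differ. All 9 were matched in RefSeq (GRCm38.p6), each is 22 bases long, and all have the same seed, shown in capitals. The prefix mmu- marks mouse rows and is left out after this list.
mmu-let-7f-5p: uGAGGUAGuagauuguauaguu
mmu-let-7c-5p: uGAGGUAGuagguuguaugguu
mmu-let-7a-5p: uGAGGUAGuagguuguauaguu
mmu-let-7i-5p: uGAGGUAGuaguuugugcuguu
mmu-let-7g-5p: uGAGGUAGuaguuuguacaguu
mmu-let-7b-5p: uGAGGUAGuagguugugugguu
mmu-let-7d-5p: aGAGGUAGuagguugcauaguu
mmu-let-7e-5p: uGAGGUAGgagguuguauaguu
mmu-miR-98-5p: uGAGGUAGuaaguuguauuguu
With let-7a as the reference and positions counted from 1 at the 5′ end, let-7f differs by G12A, let-7c by A19G and let-7e by U9G. let-7b differs by A17G and A19G, let-7d by U1A and U16C, let-7g by G12U and U18C, and miR-98 by G11A and A19U. let-7i is the farthest from let-7a, with G12U, A17G, U18C and A19U. Every difference lies outside the seed. Of the 36 pairs of members, 4 differ at 1 base and the most distant differ at 6. How the authors split reads between such rows is not given in the sources used here, so single rows are less certain than the family total.

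The members come from 12 hairpins on 7 chromosomes (build GRCm38, hosts from GENCODE mouse release 21). Mirlet7d (chr13:48536012-48536114), Mirlet7f-1 (chr13:48537829-48537917) and Mirlet7a-1 (chr13:48538179-48538272) lie together on the minus strand, overlapping exons of the long noncoding RNA 6720427I07Rik. Mirlet7c-2 (chr15:85706603-85706697) and Mirlet7b (chr15:85707319-85707403) overlap exons of the noncoding gene Lncppara. Mirlet7f-2 (chrX:151912346-151912428) and Mir98 (chrX:151913214-151913321) lie in introns of Huwe1, a ubiquitin ligase gene, and Mirlet7g (chr9:106178840-106178927) in an intron of Wdr82. Mirlet7i (chr10:122985640-122985724) overlaps an exon of the transcribed pseudogene D630033A02Rik. The other 3 share a locus with another conserved miRNA: Mirlet7c-1 (chr16:77599657-77599750) with Mir99a in Mir99ahg, Mirlet7e (chr17:17830352-17830444) with Mir125a in Spaca6, and Mirlet7a-2 (chr9:41536716-41536811) with Mir100 and Mir125b-1. The mature let-7a, let-7c and let-7f sequences are each present in 2 hairpins, so their reads cannot be assigned to a locus.

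Depth differed widely between libraries. KO libraries held 955057 to 9233235 mouse miRNA reads and WT libraries 2211619 to 3647102, which were 98.6% to 99.0% of all assigned reads. The level of a miRNA is its count per 1000000 reads in mouse miRNA rows (CPM). The members had 41794 reads in the shallowest library, KO replicate 3, and 448448 in the deepest, KO replicate 1, so counting error is small beside the spread between libraries. Rows of other species named let-7 or miR-98 held at most 2 reads in any library.

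Summed over the 9 members, the family stood at 48569, 38437, 43761 and 45543 CPM in KO replicates 1 to 4, against 32054, 34220 and 36119 CPM in WT replicates 1 to 3. Every KO library lay above every WT library, with a gap of 2319 CPM between KO replicate 2 and WT replicate 3. The mean was 44078 ± 4252 CPM in KO libraries (SD, n = 4) and 34131 ± 2034 CPM in WT libraries (SD, n = 3), or 4.41% and 3.41% of mouse miRNA reads. On the log2 scale the KO libraries were higher by 0.37 ± 0.087 (difference of means ± SE), a fold of 1.29. let-7f-5p made up 38.9% of the difference in CPM, let-7c-5p 18.4% and let-7a-5p 15.6%. In tissue RNA of this kind, a different number of cells of a type and a different amount of RNA per cell cannot be told apart.

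**Figure D1:**
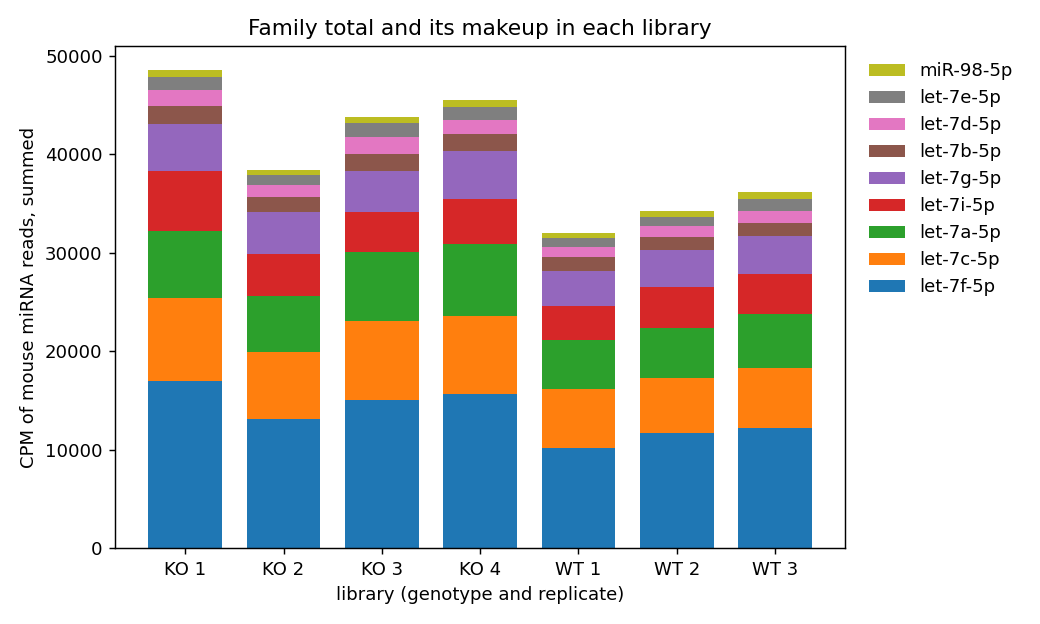
Family total in CPM of mouse miRNA reads (vertical axis, from 0) in each library, KO libraries on the left and WT libraries on the right, with each bar divided into the 9 members. The 4 KO bars reach 38437 to 48569 CPM and the 3 WT bars 32054 to 36119 CPM, and the members keep similar proportions throughout.

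let-7f-5p was the most abundant member. It stood at 16956, 13147, 15020 and 15698 CPM in KO replicates 1 to 4, against 10171, 11685 and 12159 CPM in WT libraries. The groups did not overlap, and KO replicate 2 lay closest to the WT libraries. In the edgeR fit over all 534 mouse miRNAs that passed the filter on low counts, its log2 fold change (KO minus WT, with TMM scaling) was 0.50 ± 0.12 (SE).

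Next in abundance, let-7c-5p and let-7a-5p showed a similar separation. let-7c-5p stood at 8402, 6777, 8041 and 7879 CPM in KO libraries and 6041, 5633 and 6158 CPM in WT libraries, with a log2 fold change of 0.47 ± 0.12. let-7a-5p stood at 6813, 5655, 7026 and 7291 CPM in KO libraries and 4976, 5005 and 5440 CPM in WT libraries, with a log2 fold change of 0.46 ± 0.12. For both, KO replicate 2 was again the lowest KO library and the groups did not overlap.

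let-7i-5p and let-7g-5p, which share G12U and U18C, were the middle pair in abundance. let-7i-5p stood at 6106, 4331, 4064 and 4621 CPM in KO libraries and 3431, 4184 and 4116 CPM in WT libraries, a log2 fold change of 0.37 ± 0.16. Its groups overlapped, because KO replicate 3 lay below WT replicates 2 and 3, and its log2 fold change was 0.22 without KO replicate 1. let-7g-5p stood at 4815, 4272, 4126 and 4805 CPM in KO libraries and 3561, 3799 and 3863 CPM in WT libraries, a log2 fold change of 0.35 ± 0.11. Its groups did not overlap.

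The 4 least abundant members had between 509 and 1792 CPM in every library. let-7d-5p, which has the largest log2 fold change of the members (0.54 ± 0.14), stood at 1679, 1212, 1711 and 1477 CPM in KO libraries and 998, 1144 and 1167 CPM in WT libraries, without overlap. let-7b-5p stood at 1792, 1441, 1746 and 1728 CPM in KO libraries and 1431, 1261 and 1294 CPM in WT libraries (log2 fold change 0.41 ± 0.13). Its groups were separated only by the 1441 CPM of KO replicate 2 against the 1431 CPM of WT replicate 1.

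let-7e-5p and miR-98-5p overlapped between the groups. let-7e-5p stood at 1304, 1055, 1402 and 1324 CPM in KO libraries and 936, 953 and 1222 CPM in WT libraries (log2 fold change 0.37 ± 0.14), and only WT replicate 3 reached into the KO range. miR-98-5p stood at 702, 549, 624 and 720 CPM in KO libraries and 509, 555 and 701 CPM in WT libraries (log2 fold change 0.22 ± 0.15), where KO replicate 2 lay below WT replicates 2 and 3. Its fold change was the smallest of the 9 and lay within 2 SE of 0, and it was 0.12 without WT replicate 1 and 0.34 without WT replicate 3.

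**Figure D2:**
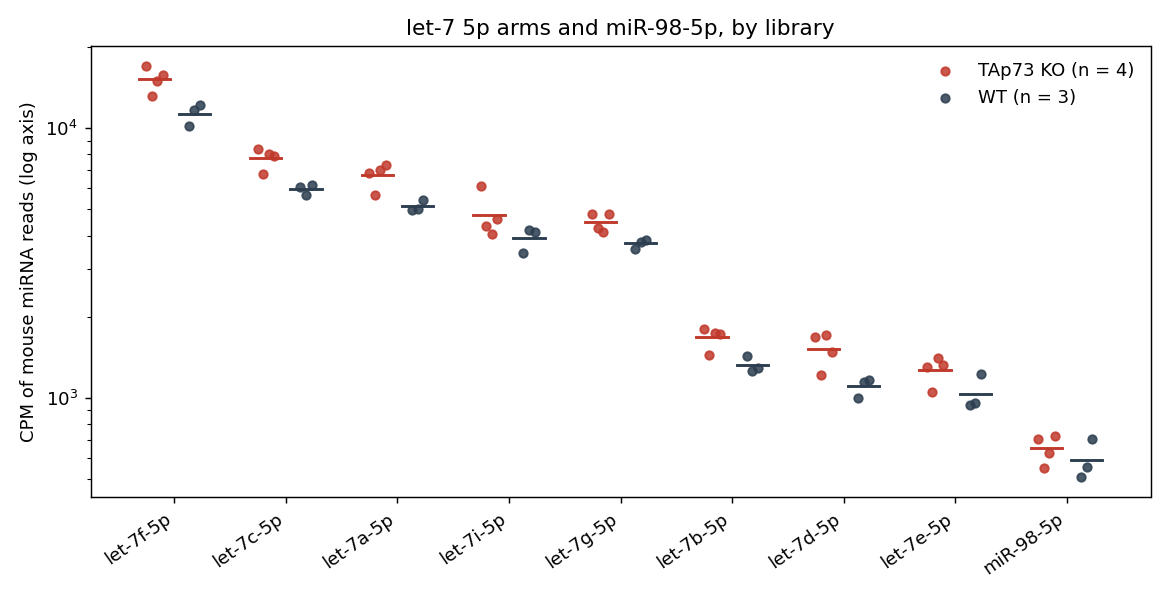
Level of each member in CPM of mouse miRNA reads (log axis), with members ordered by mean level, 1 point per library and a line at each group mean, KO libraries left of WT libraries. Means run from 15205 CPM in KO libraries and 11338 CPM in WT libraries for let-7f-5p to 649 CPM in KO libraries and 588 CPM in WT libraries for miR-98-5p, and 6 of the 9 members have groups that do not overlap.

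Thus 6 of the 9 members had every KO library above every WT library, where 3.56% of the 534 miRNAs tested did. With TMM-scaled CPM, 7 of the 9 did, where 4.87% of all tested did. The edgeR quasi-likelihood test, adjusted over all 534, called 0 of the 9, where it called 1.12% of all tested, and 8 of the 9 had an unadjusted p under 0.05, where 12.9% of all tested did. DESeq2 called 4 of the 9 (let-7d-5p and the 3 most abundant members), where it called 3.18% of the 440 to which it gave an adjusted p. With no filter on low counts edgeR called 2, let-7f-5p and let-7d-5p, where it called 1.48% of 1284. All 9 log2 fold changes were above 0, where 47.2% of all tested were, and their median was 0.41, beside -0.02 over all tested. Since this contrast led to the choice of the members, nothing is read from these counts.

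The makeup of the family varied little between libraries. let-7f-5p, let-7c-5p and let-7a-5p together took 65.2% to 68.8% of the family in all 7 libraries. Over these libraries let-7f-5p took 33.9% ± 1.04 (SD, n = 7), let-7c-5p 17.6% ± 0.81, let-7a-5p 15.1% ± 0.76, let-7i-5p 11.1% ± 1.15 and let-7g-5p 10.6% ± 0.66. let-7b-5p took 3.85% ± 0.30, let-7d-5p 3.35% ± 0.27, let-7e-5p 2.95% ± 0.26 and miR-98-5p 1.58% ± 0.18. The shares of 7 members overlapped between the groups. The exceptions were let-7f-5p, at 34.2% to 34.9% in KO libraries and 31.7% to 34.1% in WT libraries, and miR-98-5p, at 1.43% to 1.58% in KO libraries and 1.59% to 1.94% in WT libraries. let-7i-5p varied most within the KO libraries, from 12.6% in replicate 1 to 9.29% in replicate 3.

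The order of levels was nearly the same in every library. The neighbours were set by the mean levels of these same 7 libraries, so the steps between them are given as a description with no test. let-7f-5p stood above let-7c-5p by 1.93-fold (1.68 to 2.07 across libraries), let-7g-5p above let-7b-5p by 2.74-fold (2.36 to 3.01) and let-7e-5p above miR-98-5p by 1.87-fold (1.72 to 2.25), each in 7 of 7 libraries. let-7c-5p above let-7a-5p (1.16-fold), let-7a-5p above let-7i-5p (1.37-fold) and let-7b-5p above let-7d-5p (1.15-fold) also held in 7 of 7 libraries. let-7d-5p stood above let-7e-5p by 0.19 on the log2 scale on average, in 6 of 7 libraries. let-7i-5p and let-7g-5p did not differ beyond their spread, at 1.05-fold on average and 0.96 to 1.27 across libraries. These are levels of reads: the efficiency with which each sequence entered the libraries was not measured.

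The 3p arms of the same precursors were far less abundant, and their groups overlapped, as did those of 471 of the 534 miRNAs tested. The let-7d hairpin (chr13:48536012-48536114, minus strand) and the let-7g hairpin (chr9:106178840-106178927, plus strand) stand at the extremes of arm usage and are shown 5′ to 3′ with the 5p and then the 3p arm in capitals.
Mirlet7d: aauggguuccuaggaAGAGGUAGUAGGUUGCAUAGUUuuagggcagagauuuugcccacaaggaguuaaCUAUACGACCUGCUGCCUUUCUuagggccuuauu
Mirlet7g: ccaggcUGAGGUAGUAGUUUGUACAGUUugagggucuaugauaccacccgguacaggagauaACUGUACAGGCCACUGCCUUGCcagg
let-7d-3p was the most abundant 3p arm. It stood at 401, 412, 430 and 425 CPM in KO libraries and 431, 436.3 and 403.9 CPM in WT libraries. The values of both groups covered the same range, although let-7d-5p, from the same hairpin, was separated between the groups.

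All 11 rows of 3p arms were tested, and 0 were called by edgeR, where 1.12% of all tested were, or by DESeq2, which gave no adjusted p for 2 of them. At an unadjusted edgeR p under 0.05 there were also 0, where 12.9% of all tested had one. The groups overlapped for all 11, and for 471 of the 534 tested. Of the 11, 4 had a log2 fold change above 0 and 7 below 0, with a median of -0.07. let-7d-3p changed by 0.05 ± 0.13 (log2 fold change ± SE, 95% interval -0.22 to 0.33, edgeR adjusted p = 0.87). let-7b-3p, the next in abundance at 212 ± 38.5 CPM in KO libraries (SD, n = 4) and 191 ± 9.92 CPM in WT libraries (SD, n = 3), had 0.22 ± 0.17 (-0.16 to 0.59, edgeR adjusted p = 0.61). The row shared by let-7a-1-3p and let-7c-2-3p, whose sequences are identical, had -0.00 ± 0.18 (-0.40 to 0.40, edgeR adjusted p = 0.99).

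The less abundant 3p arms were less precise. let-7g-3p stood at 6.28, 15.5, 13.6 and 11.6 CPM in KO libraries and 22.6, 12.2 and 17.8 CPM in WT libraries, the 3p arm with the lowest log2 fold change at -0.55 ± 0.33 (edgeR adjusted p = 0.53). let-7i-3p was next, at 12.7, 27.7, 29.3 and 19.3 CPM in KO libraries and 44.1, 31.2 and 19.2 CPM in WT libraries (-0.48 ± 0.34, edgeR adjusted p = 0.59). For both, WT replicate 1 was the highest library and KO replicate 1 the lowest. The log2 fold change was -0.30 without KO replicate 1 and -0.80 without KO replicate 2 for let-7g-3p, and -0.15 without WT replicate 1 and -0.78 without WT replicate 3 for let-7i-3p. The remaining rows were let-7a-2-3p (-0.46 ± 0.49), let-7c-1-3p (0.19 ± 0.48), let-7e-3p (0.09 ± 0.19), let-7f-1-3p (-0.29 ± 0.25), let-7f-2-3p (-0.07 ± 0.19) and miR-98-3p (-0.19 ± 0.23), none with an edgeR adjusted p below 0.67. Without WT replicate 1, let-7a-2-3p was at -0.0092 and let-7f-1-3p at -0.15. let-7a-2-3p had 103 reads and let-7c-1-3p 87 reads over all libraries, so changes of the size seen in the 5p arms were not detectable for them at this depth. The limit on calls is wider than these rows. edgeR called 0 of the 9 members, at log2 fold changes of 0.22 to 0.54 and SE of 0.11 to 0.16. The SE of the 11 rows of 3p arms ran from 0.13 to 0.49. Their lack of calls therefore cannot set them apart from the 5p arms.

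**Figure D3:**
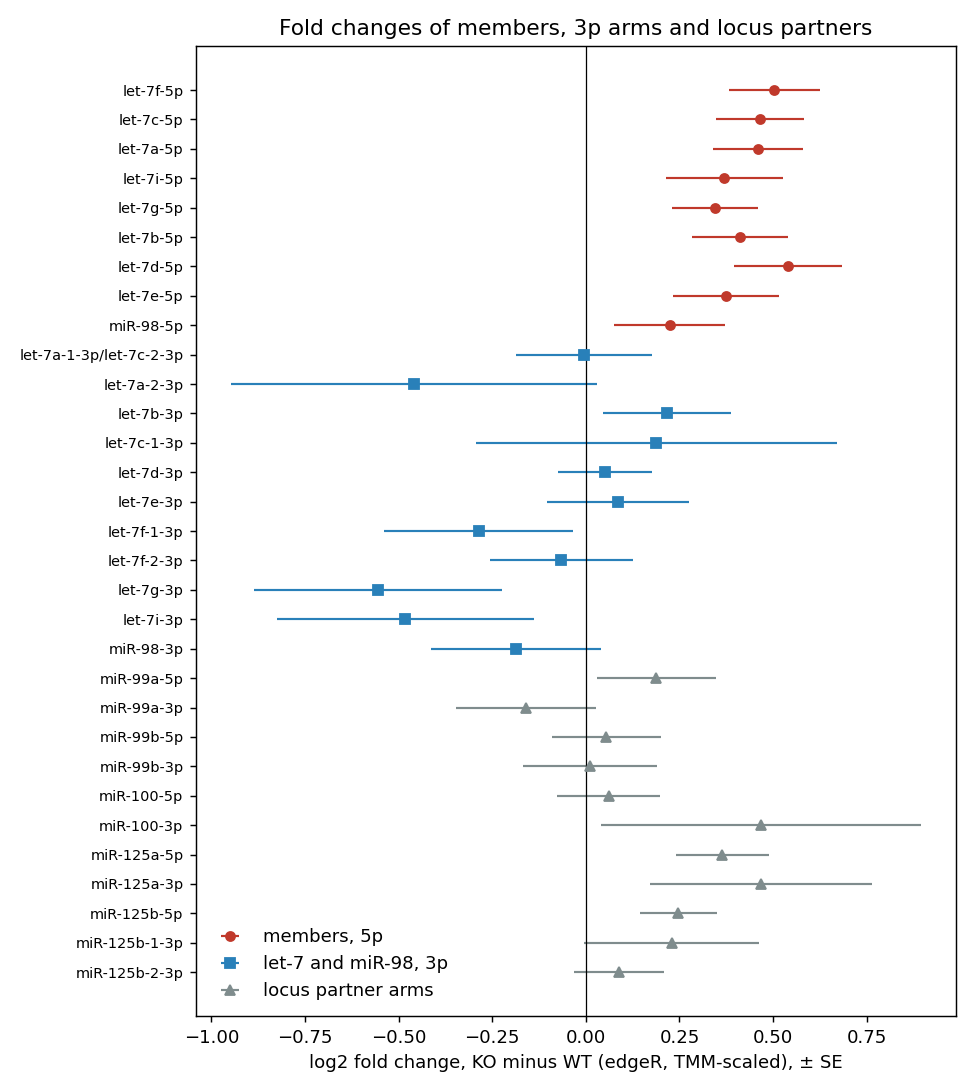
Log2 fold change, KO minus WT, with SE (edgeR, TMM-scaled) for the 9 members (red circles, descriptive only), the 11 rows of 3p arms (blue squares) and the 11 arms of miR-99, miR-100 and miR-125 from let-7 loci (grey triangles). All 9 members lie between 0.22 and 0.54, the 3p arms lie between -0.55 and 0.22, and the partner arms lie between -0.16 and 0.47.

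Summed, the 3p rows stood at 793 to 915 CPM in KO libraries and 822 to 929 CPM in WT libraries, overlapping. The ratio of 5p to 3p reads over the whole family was 61.3, 45.8, 47.8 and 53.4 in KO libraries and 34.5, 39.8 and 43.9 in WT libraries, without overlap. Because this ratio contains the 5p reads by which the members were chosen, it is given as a description.

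Arm usage differed far more between precursors than between genotypes. In WT libraries let-7d had 2.61 ± 0.29 5p reads for each 3p read (SD, n = 3) and let-7b 6.97 ± 0.31, while let-7g had 228.5 ± 77.5. The corresponding ratios in KO libraries were 3.65 ± 0.56 for let-7d, 8.05 ± 1.10 for let-7b and 440.1 ± 226 for let-7g (SD, n = 4). The groups were narrowly separated for let-7d (2.94 to 4.19 in KO libraries and 2.32 to 2.89 in WT libraries). The same held for let-7f (195 to 321 in KO libraries and 121 to 193 in WT libraries). They did not overlap for miR-98 either (29.7 to 39.7 in KO libraries and 22.6 to 27.5 in WT libraries). They overlapped for the other 5 precursors, counting let-7a and let-7c together since their 3p arms cannot be separated. These ratios too contain the 5p reads by which the members were chosen.

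**Figure D4:**
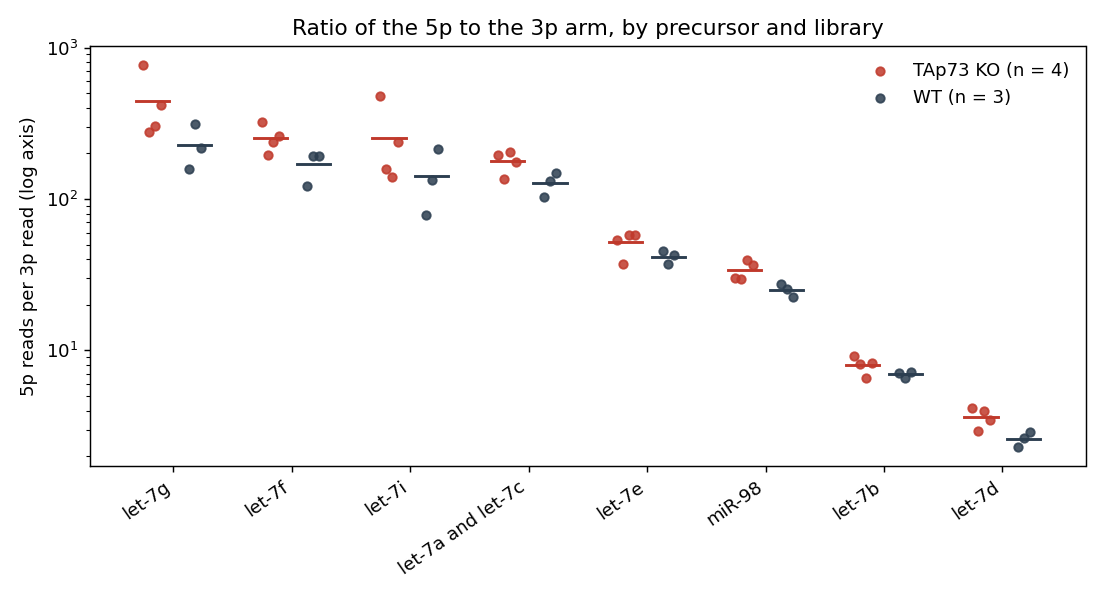
Number of 5p reads for each 3p read (log axis) for 8 precursors or sums of precursors, 1 point per library and a line at each group mean, KO libraries left of WT libraries. The ratio spans from 2.32 for let-7d in a WT library to 767 for let-7g in a KO library, and the groups are separated for let-7f, miR-98 and let-7d.

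Of the miRNAs that share a locus with a let-7 hairpin, miR-125a and miR-125b are the vertebrate relatives of lin-4, the other timing miRNA of C. elegans, and miR-99a, miR-99b and miR-100 form a family of their own. Of their 11 tested arms, 10 had a log2 fold change above 0, where 47.2% of all tested did. Their median was 0.19, beside -0.02 over all tested. Of these arms 0 were called by edgeR (1.12% of all tested) or by DESeq2, while 2 had an unadjusted edgeR p under 0.05 (12.9% of all tested). These 2 were miR-125a-5p (0.37 ± 0.12, edgeR adjusted p = 0.28) and miR-125b-5p (0.25 ± 0.10, edgeR adjusted p = 0.38). miR-125a-5p, from the let-7e locus, stood at 20648, 18904, 21292 and 18046 CPM in KO libraries and 13397, 17272 and 17889 CPM in WT libraries, and the groups did not overlap. WT replicate 1 was the lowest library, and KO replicate 4 lay just above WT replicate 3. The groups of miR-125b-5p did not overlap either, at 39021 to 40579 CPM in KO libraries and 31290 to 37628 CPM in WT libraries, again with WT replicate 1 the lowest. So 2 of the 11 arms had every KO library above every WT library, where 3.56% of all tested did. Without WT replicate 1 the log2 fold change was 0.24 for miR-125a-5p and 0.16 for miR-125b-5p. miR-99b-5p, which lies in the same cluster, had a log2 fold change of 0.05 ± 0.15, miR-100-5p, from the let-7a-2 locus, 0.06 ± 0.14, and miR-99a-5p, from the let-7c-1 locus, 0.19 ± 0.16. Their groups overlapped. With library totals alone, without TMM scaling, miR-99b-5p, miR-99b-3p and miR-100-5p were at -0.02, -0.07 and -0.01. The count of 10 arms above 0 therefore depends on the scaling.

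Other mouse rows close to the family in sequence were almost empty. In RefSeq, 11 mature mouse miRNAs have the let-7 seed: the 9 members, let-7k and miR-1961. let-7k had 1 read and miR-1961 0 reads over all 7 libraries. let-7j, whose seed differs from that of let-7a by G8U, had 122 reads in all, 0.0324 to 0.108 for each 100 let-7i-5p reads (log2 fold change 0.73 ± 0.46, edgeR adjusted p = 0.54). miR-202-3p had 3 reads.

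The miRNAs whose level followed the family total most closely over the 7 libraries, outside the rows above, were sought among 183 with a mean of at least 100 CPM. By Pearson's r of log2 CPM, as a description, they were miR-151-5p (r = 0.89), miR-30e-3p (0.88), miR-3963 (0.77), miR-423-3p (0.72) and miR-92b-3p (0.72). For the members themselves r with the total was lowest for miR-98-5p, at 0.74, and highest for let-7f-5p, at 0.99, though each is part of that total. Among the partner arms, left out of this search, r ran from -0.56 for miR-99a-3p to 0.79 for miR-125b-5p. All these values share the libraries and their scaling. Each of the 5 rows found was lowest in WT replicate 1 and highest in KO replicate 1, as was the family total. miR-151-5p stood at 6588, 6483, 6516 and 6328 CPM in KO libraries and 5170, 5567 and 5507 CPM in WT libraries, so its groups did not overlap, but it was not called (log2 fold change 0.34 ± 0.10, edgeR adjusted p = 0.23). The groups of miR-30e-3p did not overlap either, at 785.3 to 958.4 CPM in KO libraries and 735.0 to 783.6 CPM in WT libraries (edgeR adjusted p = 0.38). Those of miR-3963, miR-423-3p and miR-92b-3p overlapped.

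Markers of the cell types in the dissected tissue were set beside the family total. The neural progenitor and astroglial rows (miR-9-5p, miR-9-3p and miR-92b-3p, 3 of 3 detected) summed to 35760 to 41685 CPM in KO libraries and 28586 to 34833 CPM in WT libraries, without overlap, although each of the 3 rows overlapped and 0 were called. The 9 neuronal rows, all detected, summed to 35929 to 40197 CPM in KO libraries and 21614 to 36235 CPM in WT libraries. Of these 9, as of the 3 progenitor and astroglial rows, edgeR called 0, where it called 1.12% of all tested. miR-128-3p was the one neuronal row without overlap, at 17802 to 19444 CPM in KO libraries and 8795 to 16667 CPM in WT libraries. Over all tested, 3.56% had every KO library above every WT library. The multiciliated-cell rows (4 of 4 detected) summed to 379 to 746 CPM in KO libraries and 1253 to 3578 CPM in WT libraries. Most of that sum was miR-34c-5p, at 305 to 555 CPM in KO libraries and 1174 to 3430 CPM in WT libraries. Of the 4 rows, miR-34b and miR-34c were lower and miR-449a and miR-449c higher in the KO libraries. All 4 were called by edgeR, where 1.12% of all tested were. The choroid plexus rows, led by miR-204-5p, summed to 2016 to 7435 CPM in KO libraries and 2015 to 11789 CPM in WT libraries. The 5 leukocyte rows (590.4 to 790.5 CPM in KO libraries and 534 to 599 CPM in WT libraries), the 4 erythrocyte rows (3764 to 5217 CPM in KO libraries and 3859 to 4196 CPM in WT libraries) and the 2 smooth muscle rows (15477 to 20291 CPM in KO libraries and 15812 to 24337 CPM in WT libraries) overlapped as sums. So did the 3 oligodendrocyte rows (356 to 517 CPM in KO libraries and 387 to 680 CPM in WT libraries) and the 2 endothelial rows (785 to 985 CPM in KO libraries and 881 to 981 CPM in WT libraries), in which miR-219a-5p and miR-126a-5p are listed at 0 in every library. Among the leukocyte rows miR-142a-5p was separated, at 245 to 277 CPM in KO libraries and 212 to 242 CPM in WT libraries, and was not called. The part of these cell types in the level of let-7 was not tested.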

How the data were processed

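The labels' protocols name a phenol and chloroform extraction of total RNA and Illumina's TruSeq chemistry for small RNA, in which no molecular identifiers are added, so detection limits cover counting error only. Of tools and builds, bcl2fastq (2.17.1.14), DESeq2 and mm10 appear in the submitters' processing notes without their roles. For aligner, counter and small RNA annotation, nothing is given in the sources used here. The deposited values are raw counts, 1 for each small RNA name and library, and the 5 closing lines for unassigned reads hold 0 and were left out.

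Members and lists were chosen with earlier results of these data known. CPM is per 1000000 reads in mouse miRNA rows. All mouse miRNA rows were fitted with edgeR 4.0.16 in R 4.3.3 (TMM, filterByExpr by group with minimum count 10 and minimum total 15, robust quasi-likelihood test, Benjamini-Hochberg adjustment, threshold 0.05), after the procedure was tested on simulated data. Named are the members, their 3p arms, partner arms and rows of the same seed, and the 5 rows most like the family total by correlation of log2(CPM + 1). A count of 0 allows up to 3 reads, or 0.325 to 3.14 CPM. DESeq2 1.42.0, other scalings, filters, rows summed over species, the 4 libraries with consecutive title numbers and leaving out each library were alternatives. A planned sign-flip test of the order of member levels is not reported, since those levels set the pairs compared.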

Additional observations from a re-analysis of the deposited data

Results flagged for a closer look

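Among the 4 KO libraries, 51 values (levels, shares and arm ratios of the members, their 3p arms and partner arms) were examined for a library far from the others, where chance marks about 1 in 20, and 1 stood out. In KO replicate 4, miR-98-5p made up 1.58% of the family, while the remaining KO libraries lay between 1.43% and 1.45%. The distance to the nearest of them was 0.869 of the whole range. The WT libraries, at 1.59% to 1.94%, number 3, too few for this examination.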

How the results depend on the processing

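The family total kept its direction in all 12 alternatives, at a log2 difference of 0.32 to 0.45, and the median of the members in all 17, at 0.33 to 0.47. Each single member stayed above 0 in its 14 alternatives; the lowest was miR-98-5p without WT replicate 1, at 0.12. No 3p or partner arm was called in any of the 14 alternative fits in which it had an adjusted p. That was 9 fits for let-7c-1-3p, 9 for miR-100-3p and 11 for let-7a-2-3p, and 14 for each of the rest. The number of miRNAs called was 6 with edgeR, 14 with DESeq2, 19 with no filter and 3 to 14 when each library was left out; the cause was not tested. The sign turned for some arms whose main log2 fold change lay between -0.19 (miR-98-3p) and 0.22 (let-7b-3p), never with a call. For the let-7a-1-3p and let-7c-2-3p row it turned with DESeq2 (0.0081), RLE factors (0.0039), no filter (0.033) and the 10 CPM filter (0.0086), with -0.12 to 0.15 without each library. With library totals alone it turned for let-7d-3p (-0.023), miR-99b-5p (-0.018), miR-99b-3p (-0.073) and miR-100-5p (-0.014). In the 4 libraries whose title numbers are consecutive it turned for let-7b-3p (-0.011), let-7d-3p (-0.029), miR-98-3p (0.13), miR-99a-5p (-0.066), miR-99b-5p (-0.20) and miR-100-5p (-0.074). Without each library the ranges that crossed 0 were -0.038 to 0.17 for let-7e-3p, -0.16 to 0.11 for let-7f-2-3p, -0.14 to 0.56 for let-7c-1-3p, -0.0088 to 0.10 for let-7d-3p, -0.34 to 0.036 for miR-98-3p, -0.13 to 0.15 for miR-99b-3p, -0.032 to 0.18 for miR-99b-5p and -0.034 to 0.18 for miR-100-5p. KO replicate 3, at 955057 mouse miRNA reads, limits the rarest 3p arms. No paired analysis was possible because the labels give the groups no shared replicate numbers.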
